A study of Mus musculus with 22 samples.

Results

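The genes described here encode the factors that carry the ribosome through peptide elongation in the cytosol, together with the kinase that restrains them. They were *Eef1a1*, *Eef1a2*, *Eef1b2*, *Eef1d*, *Eef1g*, *Eef2* and *Eef2k*. These 7 genes were chosen by name, because CPEB2 is known to bind eEF2, out of the 55487 gene identifiers in each count table. Interscapular brown adipose tissue (BAT) of mice with and without the RNA-binding protein CPEB2 was profiled by mRNA sequencing, with 1 library per mouse and 22 libraries in 6 groups. The untreated cohort held 5 CPEB2-WT (WT) and 5 CPEB2-KO (KO) mice of 21 to 25 weeks of age. The adeno-associated virus (AAV) cohort held 3 mice in each of 4 groups, since WT mice and KO mice were each given either AAV-GFP or AAV-PRDM16. Each of these 12 mice received 20000000000 vector genomes in 30 µl into the fat pad at 16 weeks, and its BAT was taken 9 weeks later, at 25 weeks. All mice were labelled male and were fed the same chow. Untreated means here that no virus was given. According to the paper, the untreated mice went without food for some hours before their BAT was taken. It describes no such step for the AAV cohort. What effect this had on the transcripts described here was not tested. The virus carried either GFP, as the control, or flag-tagged PRDM16, a transcriptional regulator of brown fat identity.

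Some features limit these groups as models. The CPEB2 deletion was global, not restricted to fat, and many KO pups die early, so adult KO mice are survivors. AAV-PRDM16 carries the *Prdm16* coding region, so its transcript counts mix the viral and the mouse gene. The groups of the AAV cohort have no uninjected mice of their own cohort, and the cohorts were deposited as separate tables. Levels set across cohorts are therefore given side by side and were not tested.

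Elongation is a cycle. eEF1A, made from *Eef1a1* in most cells and from *Eef1a2* in mature muscle, heart and neurons, brings aminoacyl-tRNA to the ribosome with GTP. The eEF1B complex, built from the products of *Eef1b2*, *Eef1d* and *Eef1g*, reloads eEF1A with GTP, and eEF2 then moves the ribosome along the mRNA. eEF2 kinase (*Eef2k*), activated by calcium signals, phosphorylates eEF2 and so slows elongation. CPEB2 belongs to a family of proteins that bind U-rich elements in 3′ untranslated regions (3′ UTRs), and its contact with eEF2 is known to slow the translation of bound mRNAs. Most elongation factor mRNAs share with ribosomal protein mRNAs an oligopyrimidine tract at their 5′ end through which mTOR controls their translation.

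The libraries held 55320927 to 162721202 counts in the untreated cohort and 61636889 to 143005309 in the AAV cohort. Levels are given as counts per 1000000 counts (CPM) after TMM scaling within a cohort. *Cpeb2*, the deleted gene, was at 7.69 to 14.3 CPM in the WT libraries and at 11.7, 5.27, 2.86, 5.78 and 2.10 CPM in KO replicates 1 to 5, so KO replicate 1 lay within the WT range and the 5 untreated mice are called the libraries labelled KO. In the AAV cohort *Cpeb2* was at 10.5 to 14.0 CPM in WT and at 4.33 to 5.55 CPM in KO libraries, without overlap. *Prdm16* was at 23.9 to 40.2 CPM with AAV-GFP and at 45.8 to 128 CPM with AAV-PRDM16. *Ucp1*, the defining gene of brown fat, was at 1184 CPM or more in every library. Other tissue differed between libraries: the 20 mature muscle markers summed to 4259 CPM in WT replicate 3 and to 7728, 8614 and 1420 CPM in KO replicates 1, 2 and 5, against 47.3 to 257 CPM in the other 6 untreated libraries and 29.3 to 162 CPM in the AAV cohort. Y-linked transcripts were under 10 CPM in 6 of the 10 untreated libraries, although all were labelled male. All 10 untreated libraries are named alike in the deposited table, but in a transcript table of the study 2 WT libraries carry another style of name whose digits match WT replicates 1 and 2. No label calls these a batch, and values without them are given beside the pooled ones.

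Transcript abundance spanned a wide range among the 7 genes. Per kilobase of exon, *Eef1a1* was highest and *Eef2k* lowest by group mean in both untreated groups. In CPM, not divided by length, the WT mean of *Eef1a2* (6.35) was below that of *Eef2k* (8.52). WT replicate 3 raised the *Eef1a2* mean. In WT replicates 1, 2, 4 and 5, *Eef1a2* lay below *Eef2k* per kilobase as well. Divided by the summed length of a gene's exons, the mean WT level was 861 CPM per kilobase for *Eef1a1*, 343 for *Eef2*, 45.6 for *Eef1g*, 35.2 for *Eef1b2*, 8.11 for *Eef1d*, 3.05 for *Eef1a2* and 1.15 for *Eef2k*. In the libraries labelled KO the corresponding means were 817, 528, 62.4, 41.9, 11.9, 12.2 and 1.18 CPM per kilobase, so that by this length *Eef1a2* stood just above *Eef1d* there and the order was otherwise that of WT. The neighbours *Eef1g* and *Eef1b2* overlapped in CPM per kilobase within WT (36.9 to 57.6 against 19.3 to 51.9), as did *Eef1d* and *Eef1a2* (5.28 to 12.6 against 0.377 to 12.5) and *Eef1a2* and *Eef2k* (0.377 to 12.5 against 0.792 to 1.62), whereas *Eef1a1* lay above *Eef2*, and *Eef2* above *Eef1g*, without overlap. Division by the length of the principal transcript alone gave the WT order in both groups, with *Eef1d* at 22.8 CPM per kilobase in WT and at 33.5 in the libraries labelled KO, against 12.2 for *Eef1a2* in the latter. Some of these counts are uncertain: *Eef1a1* has 18 near-identical pseudogenes, listed with 1.44% to 5.64% of the reads of gene and copies together, and *Eef1g* has 5, with 6.52% to 12.5%. *Eef1d* shares exon sequence with *Naprt*, *Eef1a1* with *Gm26377* and *Eef1b2* with *Gm27390* on the same strand, while *Eef1b2* and *Eef2k* overlap *Ndufs1* and *Gm15774* on the other strand.

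**Figure D1:**
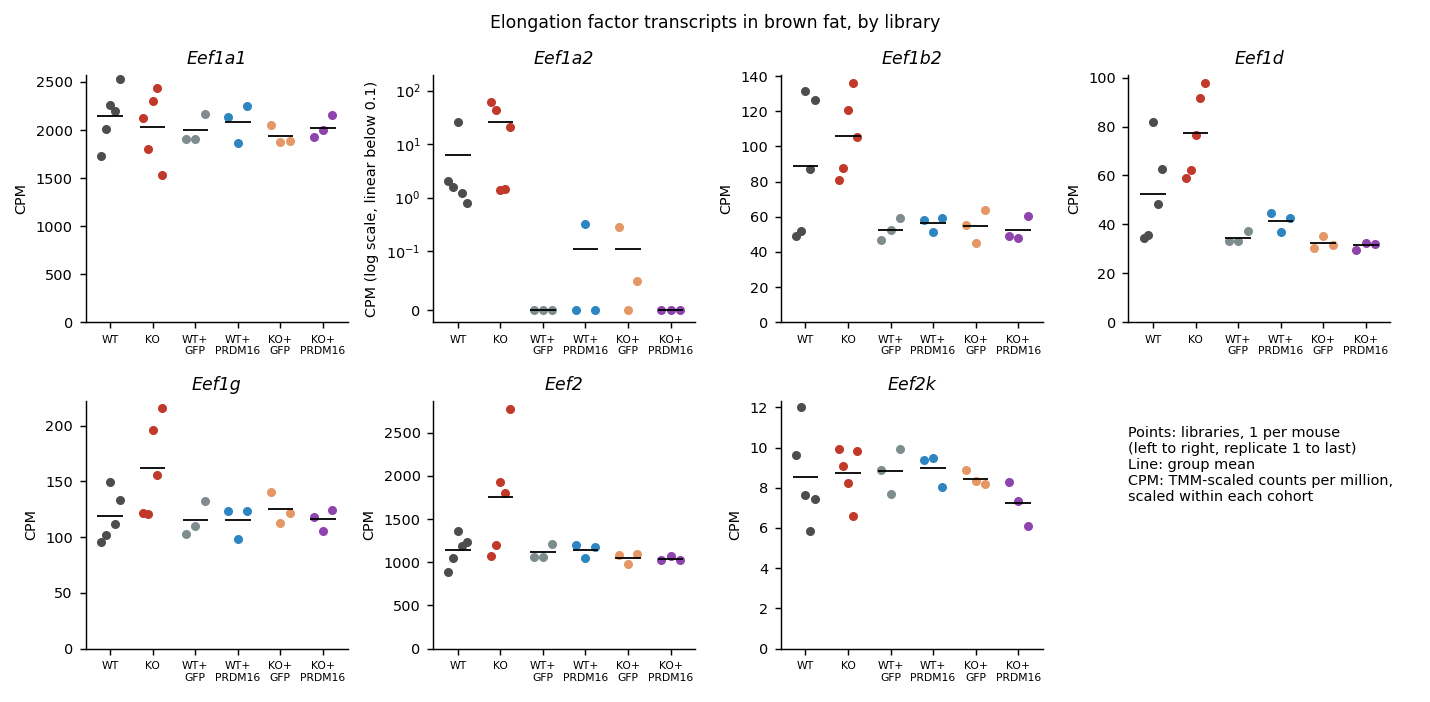
TMM-scaled CPM (vertical axes) of the 7 elongation genes in each of the 22 libraries, by group; points are mice and lines are group means, and the *Eef1a2* axis is logarithmic above 0.1. *Eef1a1* lies between 1527 and 2527 CPM throughout, *Eef1a2* is at 20.9 to 60.2 CPM in 4 untreated libraries and at 2.01 CPM or less in all others, and WT replicates 1 and 2 are the lowest untreated libraries for *Eef1b2*, *Eef1d* and *Eef1g*.

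Whether loss of CPEB2 changed the transcripts of the elongation machinery was asked first in the untreated cohort. None of the 7 genes passed edgeR's quasi-likelihood test at a false discovery rate (FDR) of 0.05, against 0% of the 17869 genes tested. None had an unadjusted edgeR p under 0.05, where 15.9% of all genes did. DESeq2 called none at an FDR of 0.05, against 0% of all genes. Its unadjusted p was 0.0230 for *Eef2* and 0.0439 for *Eef1d* (adjusted p = 0.211 and 0.246), and above 0.05 for the other members. The share of all genes with an unadjusted DESeq2 p under 0.05 was not counted, so these values have no background beside them. At the looser thresholds of the study, 2-fold and an FDR of 0.5, edgeR called 1 of the 7, *Eef1a2*, against 10.8% of all genes. Of the 7 log2 fold changes, 6 were above 0, with a median of 0.45, against 51.8% and a median of 0.04 over all genes. All 7 genes overlapped between WT and the libraries labelled KO, and 1.4% of all genes did not overlap. Without WT replicates 1 and 2, 5 of the 7 were above 0, with a median of 0.36.

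*Eef1a1* encodes the common form of eEF1A and lies on the minus strand of chromosome 9 (GRCm38, 78478449 to 78489151). It was at 1729, 2011, 2265, 2202 and 2527 CPM in WT replicates 1 to 5 and at 2124, 1798, 2297, 2434 and 1527 CPM in KO replicates 1 to 5. The means were 2147 ± 298 CPM (SD, n = 5) and 2036 ± 371 CPM (SD, n = 5), a log2 fold change of -0.08 ± 0.24 (SE; edgeR adjusted p = 0.873) with a 95% interval of -0.60 to 0.44. Without WT replicates 1 and 2 the log2 fold change was -0.14. WT replicate 1 and KO replicate 5 were low and the 2 groups covered nearly the same span. Its coefficient of variation was 13.9% in WT and 18.2% in the libraries labelled KO. In the AAV cohort it was at 1869 to 2248 CPM, and its log2 fold changes there lay between -0.05 and 0.07. Its 3′ UTR of 285 bases holds 1 copy of TTTTAAT, a form of the U-rich element that CPEB proteins are known to bind, and none of TTTTAT. The site lies 210 bases after the stop codon and 69 before the end of the transcript, at chr9:78478507-78478534 on the minus strand of GRCm38, and is shown with the match in capitals because it is the only such match among the eEF1A and eEF1B genes and *Eef2*.
Eef1a1 3′ UTR: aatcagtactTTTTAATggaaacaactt
TTTTAAT occurs in 6.32% of 1708 mouse 3′ UTRs within 20% of that length. A match of letters is no binding site, and CPEB2 binding was not measured in these data.

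*Eef1a2*, the muscle and neuron form, lies on the minus strand of chromosome 2 (181147653 to 181157014) and showed the widest spread. It was at 2.01, 1.61, 26.1, 1.24 and 0.786 CPM in WT replicates 1 to 5. It was at 60.2, 43.3, 1.37, 1.47 and 20.9 CPM in KO replicates 1 to 5. So 1 WT library and 3 libraries labelled KO were high, the other 6 libraries of both groups lay between 0.786 and 2.01 CPM, and the groups overlapped. The log2 fold change was 2.01 ± 1.17 (SE; edgeR adjusted p = 0.373), with a 95% interval of -0.52 to 4.54. One library decided its size: without WT replicate 3 it was 4.17, and without KO replicate 1 it was 1.41, and neither value passed the test. Without WT replicates 1 and 2 it was 1.43 (edgeR adjusted p = 0.867).

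The 4 libraries high in *Eef1a2* were the 4 with the most mature muscle transcripts. *Ckm*, muscle creatine kinase, was at 393 CPM in WT replicate 3 and at 585, 923 and 227 CPM in KO replicates 1, 2 and 5, against 0.576 to 17.6 CPM in the other 6. With the library's muscle score as a covariate, the log2 fold change of *Eef1a2* was 1.02 ± 0.46 (SE; edgeR adjusted p = 0.393), against 2.01 ± 1.17 (SE) without it. The estimate was smaller and its error narrower, and neither passed. In bulk tissue, more cells of a type and more RNA per cell of that type cannot be told apart. Below the high range the 2 transcripts did not keep a constant ratio: WT replicate 4 and KO replicate 4 had *Eef1a2* at 1.24 and 1.47 CPM with *Ckm* at only 1.15 and 0.576 CPM, and the neuronal gene *Snap25* at 3.08 and 3.47 CPM. Over the 13 nerve markers, which summed to 63.3 to 233 CPM in the untreated libraries, these 2 libraries stood at 149 and 96.8 CPM. What share nerve RNA had in their *Eef1a2* was not tested.

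**Figure D2:**
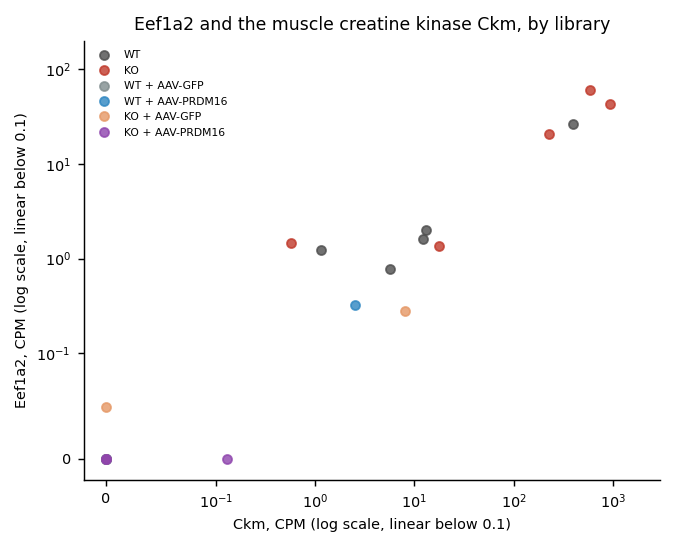
*Eef1a2* (vertical axis, CPM) against *Ckm* (horizontal axis, CPM) in the 22 libraries, on axes that are logarithmic above 0.1 and linear below; points are mice, coloured by group. The 4 untreated libraries with *Ckm* of 227 CPM or more hold 20.9 CPM or more of *Eef1a2*, and 9 of the 12 AAV libraries lie at 0 for *Eef1a2*.

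In the AAV cohort *Eef1a2* was almost absent. It had 0 counts in 9 of the 12 libraries, which allows up to 0.0487 CPM in the least deeply sequenced of them. It had 29 counts (0.321 CPM) in WT + AAV-PRDM16 replicate 2, 19 counts (0.283 CPM) in KO + AAV-GFP replicate 1 and 7 counts (0.0486 CPM) in KO + AAV-GFP replicate 3. The first 2 of these were also the AAV libraries with the most *Acta1*, skeletal muscle actin, at 3.27 and 13.1 CPM, against 0.458 CPM or less in the other 10. *Eef1a2* was left out of the AAV tests by the filter on low counts. The values of the 2 cohorts stand on scales set separately, and their difference was not tested.

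Within a library, *Eef1a2* made up a small share of eEF1A transcripts. Counted per exon length, the share was 0.139%, 0.0955%, 1.36%, 0.0672% and 0.0372% in WT replicates 1 to 5 and 3.28%, 2.80%, 0.0713%, 0.0722% and 1.61% in KO replicates 1 to 5. The means were 0.340% ± 0.571 (SD, n = 5) and 1.57% ± 1.49 (SD, n = 5). The log2 difference was 2.16, and an exact two-sided permutation test of the log2 ratio gave p = 0.183 (adjusted 0.460 over the 6 ratio tests made). Without WT replicates 1 and 2 it was 2.00 (exact permutation p = 0.179). So *Eef1a1* supplied nearly all eEF1A transcripts, also in the libraries rich in muscle RNA. The highest share of *Eef1a2* in the AAV cohort was 0.0205%.

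The promoters of these genes differ in a feature read from sequence alone. The RefSeq table for GRCm38 holds 250 bases before to 50 bases after the start of 5 of the members, and these were searched on both strands for TATAAA and TATATAA, forms of the TATA box. *Eef1a1* holds TATATAA, 23 bases after the listed start (chr9:78481685-78481712, minus strand), and *Eef2* holds TATAAA, 15 bases before it (chr10:81176605-81176632, plus strand). The windows of *Eef1a2*, *Eef1b2* and *Eef2k* hold neither. The stretches are shown, with the match in capitals, because they belong to the 2 most abundant members.
Eef1a1 start region: ggggagaacggTATATAAgtgcggcagt
Eef2 start region: cggcgtcgaccTATAAAaggccgggcgt
One or both motifs occur on the strand of the gene in 9.49% of 32851 mouse promoters of this length, and on either strand in 15.1%. *Eef1d* and *Eef1g* were not searched. A match of letters is no working TATA box, and neither start sites nor promoter use were measured in these data.

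The eEF1B genes varied with one another in the untreated cohort. *Eef1b2*, for the nucleotide exchange subunit eEF1B alpha, lies on chromosome 1 (63176825 to 63180486, plus strand) and was at 48.8, 51.7, 131, 87.1 and 127 CPM in WT replicates 1 to 5. In KO replicates 1 to 5 it was at 81.0, 87.7, 120, 136 and 105 CPM. WT replicates 1 and 2 were the low ones, and the remaining 3 WT libraries lay within the span of the libraries labelled KO. The log2 fold change was 0.25 ± 0.32 (SE; edgeR adjusted p = 0.666) and became -0.06 without WT replicates 1 and 2.

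*Eef1d*, for the exchange subunit eEF1B delta, lies on chromosome 15 (75894205 to 75909556, minus strand). In WT replicates 1 to 5 it was at 34.3, 35.8, 81.8, 48.5 and 62.6 CPM, and in KO replicates 1 to 5 at 58.9, 62.2, 76.6, 91.8 and 97.8 CPM. All 5 libraries labelled KO were above 3 of the 5 WT libraries, and the groups overlapped through WT replicates 3 and 5. The log2 fold change was 0.56 ± 0.28 (SE; edgeR adjusted p = 0.332), with a 95% interval of -0.05 to 1.17. It was 0.32 without WT replicates 1 and 2.

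*Eef1g*, for the scaffold subunit eEF1B gamma, lies on chromosome 19 (8967041 to 8978479, plus strand). Its WT levels were 95.9, 102, 150, 111 and 134 CPM, and its levels in the libraries labelled KO were 121.3, 120.7, 196, 156 and 216 CPM. Again WT replicates 1 and 2 were lowest. KO replicates 3, 4 and 5 stood above every WT library, and KO replicates 1 and 2 among them. The log2 fold change was 0.45 ± 0.25 (SE; edgeR adjusted p = 0.352) and 0.36 without WT replicates 1 and 2.

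*Eef2*, whose product is the CPEB2 partner, lies on chromosome 10 (81176631 to 81182498, plus strand). It was at 885, 1047, 1357, 1186 and 1232 CPM in WT replicates 1 to 5. It was at 1074, 1205, 1924, 1801 and 2776 CPM in KO replicates 1 to 5. KO replicates 3, 4 and 5 lay above all WT libraries, and KO replicates 1 and 2, the pair with the most muscle RNA, lay within the WT range. The means were 1141 ± 181 CPM (SD, n = 5) in WT and 1756 ± 678 CPM (SD, n = 5) in the libraries labelled KO, a coefficient of variation of 15.9% against 38.6%. *Eef2* had the smallest adjusted p of the 7 genes and still did not pass: the log2 fold change was 0.62 ± 0.30 (SE; edgeR adjusted p = 0.319), or 1.54-fold, with a 95% interval of -0.02 to 1.27. It was 0.39 without KO replicate 5, which held the highest value, and 0.54 without WT replicates 1 and 2. Y-linked transcripts were under 10 CPM in 4 of the 5 libraries labelled KO and in 2 of the 5 WT libraries. Whether a library was above 10 CPM was then entered as a covariate. The log2 fold change of *Eef2* was then 0.43 (edgeR adjusted p = 0.593), that of *Eef1d* 0.35, that of *Eef1g* 0.26 and that of *Eef1b2* 0.04, and none passed. The libraries above 10 CPM were WT replicates 1, 2 and 4 and KO replicate 2. This covariate is therefore tied to genotype, and the fit is no separate check from the one without WT replicates 1 and 2.

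*Eef2k* lies on chromosome 7 (120842831 to 120907450, plus strand). In WT replicates 1 to 5 it was at 9.65, 12.0, 7.62, 5.86 and 7.44 CPM, and in KO replicates 1 to 5 at 9.93, 9.08, 8.26, 6.61 and 9.84 CPM. Here WT replicates 1 and 2, low in the eEF1B genes, were the highest WT libraries. The log2 fold change was 0.04 ± 0.24 (SE; edgeR adjusted p = 0.940) and 0.38 without WT replicates 1 and 2. Its 3′ UTR of 4059 bases is the longest of the 7 and the only one that holds TTTTAT, with 2 copies, beside 1 copy of TTTTAAT. The first TTTTAT lies 79 bases after the stop codon (chr7:120903460-120903487), the second 2662 bases after it (chr7:120906043-120906070), and TTTTAAT 1814 bases after it (chr7:120905195-120905222), all on the plus strand of GRCm38. They are shown, with the match in capitals, as the forms of the CPEB element found in the transcript of the kinase.
Eef2k 3′ UTR, first TTTTAT: ggagaagcagTTTTATtatggtataaac
Eef2k 3′ UTR, TTTTAAT: tgtttttgttTTTTAATtagtaccagaa
Eef2k 3′ UTR, second TTTTAT: tcactgggagTTTTATgccagattgggc
Among 1347 mouse 3′ UTRs within 20% of this length, 90.7% hold TTTTAT and 66.1% TTTTAAT, so such matches are common at this length. The 3′ UTRs of *Eef1a2*, *Eef1b2*, *Eef1d*, *Eef1g* and *Eef2*, of 326 to 1348 bases, hold neither.

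The balance of kinase and substrate transcripts was followed within each library. Per exon length, *Eef2k* amounted to 0.490, 0.515, 0.252, 0.222 and 0.271 per 100 *Eef2* transcripts in WT replicates 1 to 5 and to 0.415, 0.338, 0.193, 0.165 and 0.159 in KO replicates 1 to 5. The log2 difference was -0.49 (exact two-sided permutation test, p = 0.230, adjusted 0.460), and the groups overlapped. Without WT replicates 1 and 2, which held the highest ratios of all 22 libraries, it was -0.08 (exact permutation p = 0.821). In the AAV cohort the ratio ran from 0.266 to 0.406 per 100 *Eef2* transcripts.

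**Figure D3:**
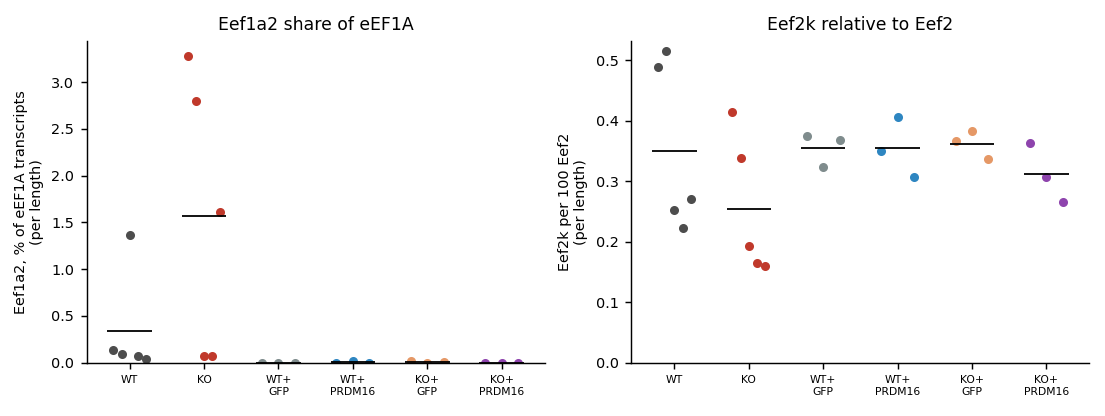
Left, the percentage of eEF1A transcripts that came from *Eef1a2*; right, the number of *Eef2k* transcripts per 100 *Eef2* transcripts, both per exon length, in each library by group (points are mice, lines are group means). The *Eef1a2* share is above 1% in 4 untreated libraries, and the *Eef2k* ratio is highest in WT replicates 1 and 2, at 0.490 and 0.515.

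Several elongation factor transcripts varied across libraries along with those of ribosomal protein genes. Ribosomal protein genes, 86 in all, took 0.341% and 0.425% of the counts in WT replicates 1 and 2 and 0.778% to 1.44% in the other 8 untreated libraries. Their share was 0.370% to 0.606% in the AAV cohort. *Eef1b2* and *Eef1d* of WT replicates 1 and 2 thus stood at AAV-cohort levels, where *Eef1b2* was at 45.1 to 63.9 CPM and *Eef1d* at 29.7 to 44.7 CPM. Of 85 ribosomal protein genes tested in the untreated cohort, 80 had a log2 fold change above 0 with a median of 0.53, and none passed the edgeR test at an FDR of 0.05 (2 had an unadjusted p under 0.05, and DESeq2 called 0). Without WT replicates 1 and 2 the median was 0.11, with 57 above 0.

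**Figure D4:**
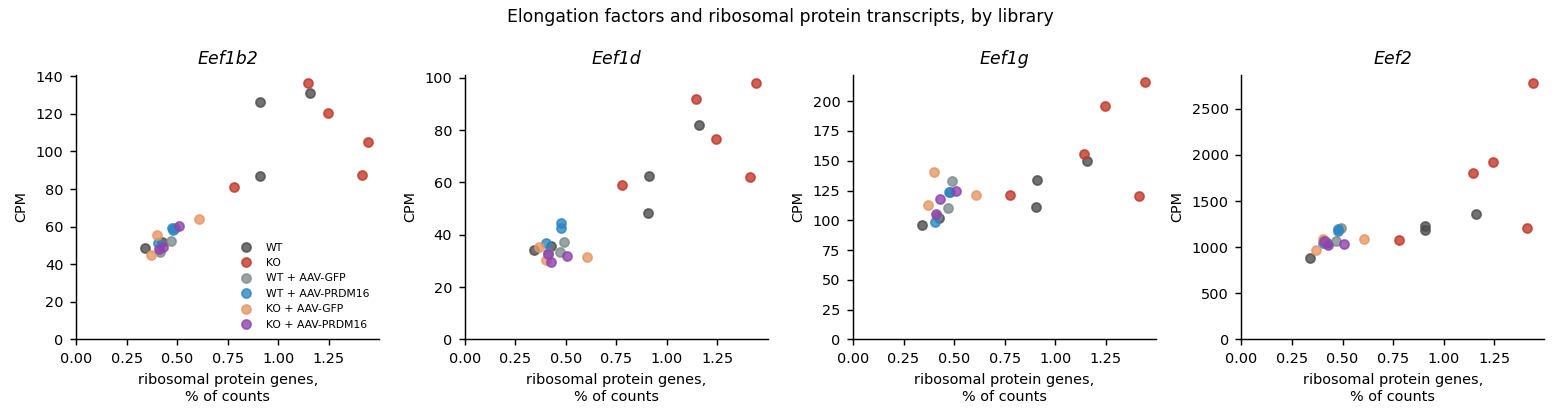
CPM of *Eef1b2*, *Eef1d*, *Eef1g* and *Eef2* (vertical axes) against the percentage of all counts on 86 ribosomal protein genes (horizontal axes) in each of the 22 libraries, coloured by group. WT replicate 2, at 0.425%, sits among the AAV libraries at 0.370% to 0.606%, and WT replicate 1, at 0.341%, lies below them. The other 8 untreated libraries lie at 0.778% or more.

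The genes most like each member were sought by the Pearson correlation of log2 CPM after removal of group means, averaged over the 10 untreated and 12 AAV libraries, as a description without a test, since libraries share depth and makeup. *Eef1b2* went closest with ribosomal protein genes, *Rps6* (mean r = 0.96), *Rpl26* (0.95) and *Rpl32* (0.95). *Eef1d* went closest with *Rps13* (0.86), the respiratory chain gene *Uqcr10* (0.83) and *Plppr3* (0.82). *Eef2* was nearest to *Trnau1ap* (0.94), *Ctbp1* (0.93) and *Kdelr1* (0.92), *Eef1g* to *Ppp1r11* (0.94), *Ube2m* (0.91) and *Washc3* (0.91), and *Eef1a1* to *Psma4* (0.91), *Prpf38a* (0.89) and *Cnbp* (0.89). *Eef2k* was nearest to *Cbx2* (0.88), *Slc38a7* (0.81) and *Zik1* (0.79). *Eef1a2* could be followed in the untreated cohort only. Its nearest genes were *Rbfox1* (r = 0.99) and the muscle enzyme genes *Pygm* (0.98) and *Eno3* (0.97). The search covered only genes tested in both cohorts, so genes that, like *Eef1a2*, were too low for the AAV tests could not appear. Among the members themselves, untreated libraries gave r = 0.92 for *Eef1b2* with *Eef1d*, 0.93 for *Eef1g* with *Eef2* and 0.84 for *Eef1d* with *Eef1g* (n = 10 each). *Eef2k* ran the other way from *Eef1b2*, with r = -0.72. These untreated values include WT replicates 1 and 2, which were low in the eEF1B genes and the highest WT libraries for *Eef2k*. In the AAV cohort the closest pair was *Eef1a1* and *Eef1g* (r = 0.89, n = 12), and *Eef1b2* with *Eef1d* had r = 0.14.

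The AAV cohort asked whether the same genotype difference was present in injected BAT, and whether PRDM16 altered it. Spread was smaller there, with a common dispersion of 0.0887 against 0.312 in the untreated cohort. With AAV-GFP, 0 of the 6 genes tested passed the edgeR test at an FDR of 0.05, against 0.0529% of 18899 genes, none had an unadjusted p under 0.05, where 9.18% of all genes did, and DESeq2 called none, against 1.29% of all genes. All 6 overlapped between KO and WT, where 13.4% of all genes did not. The log2 fold changes of KO over WT ran from -0.10 for *Eef1d* to 0.12 for *Eef1g*. *Eef2* was at 1064, 1063 and 1213 CPM in WT + AAV-GFP and at 1084, 974 and 1091 CPM in KO + AAV-GFP, a log2 fold change of -0.08 ± 0.10 (SE; edgeR adjusted p = 0.891). Its 95% interval, -0.30 to 0.13, lay below the untreated estimate of 0.62, whose own interval reached down to -0.02. The difference between the cohorts was not tested.

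With AAV-PRDM16, *Eef1d* stood apart from the other members. It was at 44.7, 36.9 and 42.7 CPM in WT + AAV-PRDM16 and at 29.7, 32.5 and 32.1 CPM in KO + AAV-PRDM16, so every KO library was below every WT library. The means were 41.4 ± 4.07 CPM (SD, n = 3) and 31.4 ± 1.53 CPM (SD, n = 3), a log2 fold change of -0.40 ± 0.10 (SE), or 0.758-fold, with a 95% interval of -0.62 to -0.18. The edgeR unadjusted p was 0.00194 and the adjusted p 0.145, so *Eef1d* did not pass, while DESeq2 gave an adjusted p of 0.0207 for a log2 fold change of -0.39. The adjusted p over all alternatives ran from 0.0207 to 0.449. *Eef1d* was the 1 of 6 members without overlap, where 22.8% of all genes did not overlap and 11.2% were lower in KO without overlap. EdgeR called 0 of 6 members at an FDR of 0.05, against 0.0476% of all genes, 1 had an unadjusted p under 0.05, where 13.7% of all genes did, and DESeq2 called 1, against 3.28% of all genes.

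*Eef1d* of the AAV-GFP groups was at 33.2, 33.2 and 37.4 CPM in WT and 30.3, 35.2 and 31.4 CPM in KO. WT + AAV-PRDM16 exceeded WT + AAV-GFP in 2 of its 3 libraries, and the third overlapped. That log2 fold change was 0.26 ± 0.10 (SE; edgeR adjusted p = 0.583), whereas in KO mice it was -0.04 ± 0.10 (adjusted p = 0.9999). The interaction of genotype and virus was -0.30 ± 0.14 (SE; edgeR adjusted p = 0.9998), with 0 of 6 members called, against 0% of all genes, 0 by DESeq2 and 0 at an unadjusted p under 0.05, where 3.19% of all genes were. These comparisons share groups: the WT + AAV-PRDM16 libraries enter each of the values 0.26, -0.40 and -0.30. In the untreated cohort the *Eef1d* estimate had the other sign, 0.56. Averaged over both viruses, KO was below WT by a log2 fold change of -0.25 ± 0.07 (SE; edgeR adjusted p = 0.0880; DESeq2 adjusted p = 0.0271), and the 6 libraries of each genotype overlapped, as did those of the other members, where 2.71% of all genes did not overlap. In that average 0 of 6 members were called by edgeR, against 2.18% of all genes, 1 had an unadjusted p under 0.05, where 18.3% of all genes did, and DESeq2 called 1, against 8.38% of all genes.

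*Eef2k* had the next lowest ratio of KO to WT with AAV-PRDM16, where 5 of the 6 members had a lower KO mean. It was at 9.36, 9.50 and 8.05 CPM in WT + AAV-PRDM16 and at 8.30, 7.32 and 6.11 CPM in KO + AAV-PRDM16. KO replicate 1 overlapped WT replicate 3. The log2 fold change was -0.31 ± 0.14 (SE; edgeR adjusted p = 0.371), against -0.06 ± 0.14 (SE; adjusted p = 0.951) with AAV-GFP, and the interaction was -0.24 ± 0.20 (SE; adjusted p = 0.9998). *Eef2* itself was at 1201, 1049 and 1173 CPM in WT + AAV-PRDM16 and at 1023, 1068 and 1030 CPM in KO + AAV-PRDM16, a log2 fold change of -0.13 ± 0.10 (SE; adjusted p = 0.602). *Eef1b2* and *Eef1g* differed by -0.10 and 0.01 on the log2 scale between KO and WT with AAV-PRDM16, and their libraries overlapped.

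For AAV-PRDM16 over AAV-GFP, 0 of 6 members passed in WT and 0 of 6 in KO mice, against 0% of all genes in either comparison by edgeR; an unadjusted p under 0.05 was found for 1 (*Eef1d*) in WT, where 7.29% of all genes had one, and for 0 in KO, where 6.41% did. DESeq2 called 0 members in both, against 0.804% and 1.41% of all genes, and all 6 overlapped, where 14.2% and 9.43% of all genes did not. The log2 fold changes other than that of *Eef1d* ran from -0.0027 (*Eef1g*) to 0.09 (*Eef1b2*) in WT and, for all 6, from -0.22 (*Eef2k*) to 0.07 (*Eef1a1*) in KO. *Prdm16* over the same pairs differed by 1.52 ± 0.34 and 1.47 ± 0.34 (SE) on the log2 scale without overlap (edgeR adjusted p = 0.459 and 0.307). Setting KO + AAV-PRDM16 against WT + AAV-GFP, *Eef1d* was again the 1 member without overlap, at a log2 fold change of -0.14 ± 0.10 (SE; adjusted p = 0.824), where 13.2% of all genes did not overlap and 7.09% were lower. In that comparison edgeR called 0 of 6 members, against 0.00529% of all genes, with 0 at an unadjusted p under 0.05, where 7.93% of all genes were, and 0 by DESeq2, against 0.831% of all genes.

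**Figure D5:**
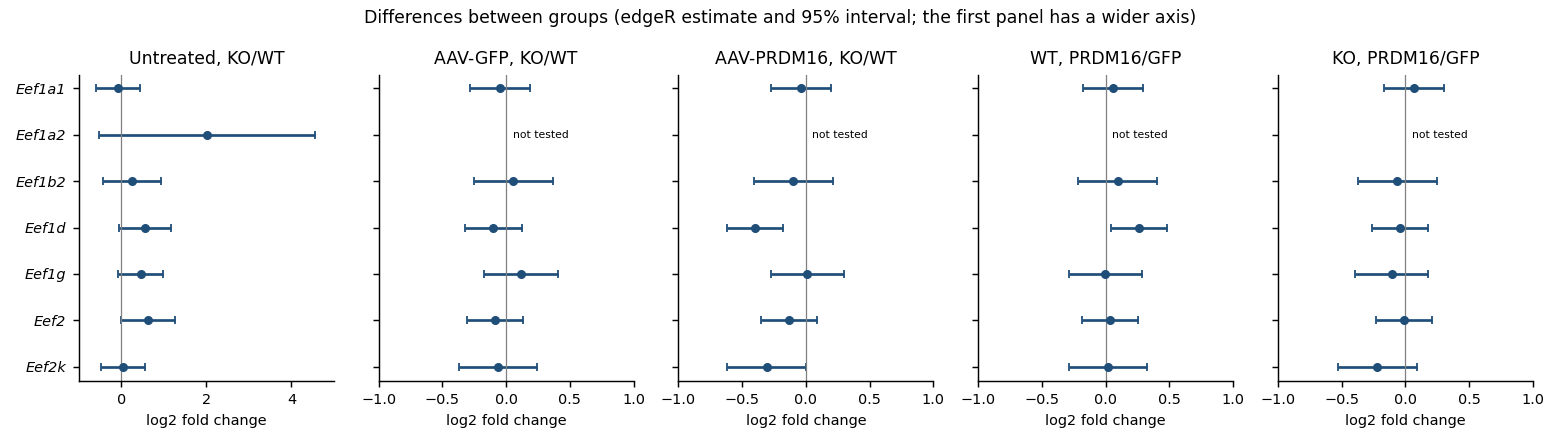
Log2 fold change (horizontal axes) of each elongation gene in 5 comparisons, with edgeR's estimate as a point and its 95% interval as a bar; the first panel has a wider axis. The intervals of *Eef1d* leave out 0 with AAV-PRDM16 (-0.62 to -0.18) and for the virus in WT mice (0.04 to 0.48), neither passing the adjusted test, and *Eef1a2* was not tested in the AAV cohort.

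Other genes of elongation and its control were taken as a list of 48, of which 47 were tested in each cohort. In the untreated cohort edgeR called 0 of 47 at an FDR of 0.05, 9 had an unadjusted p under 0.05, of which 2 had a higher and 7 a lower KO mean, and DESeq2 called 0. Over all genes 4.99% were higher and 10.9% lower at that unadjusted p. The list's median log2 fold change was -0.12, below that of the 7 elongation genes. Genes that bring the ribosome to release had lower means: *Etf1*, the release factor that reads stop codons, was at 74.4 against 109.5 CPM (-0.56 ± 0.30, SE; adjusted p = 0.345), and its GTPase partner *Gspt1* at 30.7 against 52.9 CPM (-0.79 ± 0.30, SE; adjusted p = 0.305). The ribosome recycling factor *Abce1* was at 39.2 against 57.7 CPM (adjusted p = 0.354), while *Gcn1*, a sensor of stalled ribosomes, was at 47.1 against 36.2 CPM (adjusted p = 0.385).

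The mitochondrial elongation factors did not go one way. *Tufm*, the mitochondrial counterpart of eEF1A, was at 283 CPM in the libraries labelled KO and 199 CPM in WT (log2 fold change 0.51 ± 0.34, SE; edgeR adjusted p = 0.427). *Gfm1*, the counterpart of eEF2, was at 71.6 against 122 CPM (-0.77 ± 0.36, SE; adjusted p = 0.315). *Guf1*, a mitochondrial elongation GTPase named here after its values were seen, was the only one of the 47 without overlap, at 17.4 against 34.0 CPM (-0.97 ± 0.26, SE; adjusted p = 0.305). Over all genes, 1.4% did not overlap in that comparison. With AAV-PRDM16, all 5 mitochondrial elongation genes had log2 fold changes below 0 in KO, 3 of them without overlap, where 11.2% of all genes were lower without overlap, and 0 were called by edgeR. There *Tufm* was at 162 against 192.6 CPM (-0.25 ± 0.11, SE; adjusted p = 0.342) and *Gfm1* at 141 against 168 CPM (-0.25 ± 0.10, SE; adjusted p = 0.323).

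None of the listed methyltransferases, or of the genes for diphthamide synthesis and for eIF5A and its hypusine residue, was called by edgeR in either cohort. Of the 7 genes of diphthamide synthesis, the modification of eEF2 on which diphtheria toxin acts, *Dph3* and *Dph1* were at 18.3 and 7.31 CPM in the untreated libraries labelled KO and 16.6 and 6.12 CPM in WT (adjusted p = 0.769 and 0.571). With AAV-PRDM16, *Dph1* was at 6.60 CPM in KO and 9.16 CPM in WT without overlap (-0.47 ± 0.13, SE; edgeR adjusted p = 0.158). *Eef2kmt*, a lysine methyltransferase of eEF2, was at 20.8 against 25.7 CPM there (-0.31 ± 0.10, SE; adjusted p = 0.232), also without overlap, and the methyltransferase *N6amt1* was at 17.1 against 17.4 CPM (adjusted p = 0.969). *Dohh*, which completes the hypusine residue of eIF5A, was at 22.5 against 28.5 CPM without overlap (-0.34 ± 0.10, SE; adjusted p = 0.172), whereas *Eif5a* was at 149 against 155 CPM (adjusted p = 0.900). Lack of overlap was common in this comparison. With AAV-PRDM16, 3 of the 47 listed genes were higher and 8 lower in KO without overlap. Over all genes, 22.8% did not overlap and 11.2% were lower without overlap. Averaged over both viruses, *Dohh* differed by -0.29 ± 0.07 (SE; edgeR adjusted p = 0.0503).

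Among 14 genes upstream of eEF2 kinase, *Rps6ka3* passed the test. It encodes RSK2, a kinase that phosphorylates and inhibits eEF2 kinase, and averaged over both viruses it was at 59.9 CPM in KO and 47.1 CPM in WT, without overlap, a log2 fold change of 0.35 ± 0.08 (SE; edgeR adjusted p = 0.0476). This was 1 of 47 genes called, against 2.18% of all genes. It was also the 1 of 47 without overlap there, where 2.71% of all genes did not overlap. Its log2 fold change stayed between 0.30 and 0.39 under every alternative, and DESeq2 kept the call (adjusted p = 0.00278). With edgeR the call was close to the threshold, since it was lost without a filter on low counts (adjusted p = 0.0602), with the replicate number as a block (adjusted p = 0.0631), with the muscle score as a covariate (adjusted p = 0.0781) and when any 1 of 11 of the 12 libraries was left out. The untreated mean was 23.2 CPM in the libraries labelled KO and 37.6 CPM in WT (-0.70 ± 0.38, SE; adjusted p = 0.354). *Mtor*, a kinase that restrains eEF2 kinase and is abundant among these genes, was at 166 CPM in KO and 185 CPM in WT over both viruses (adjusted p = 0.606). For the list of 48, edgeR called 0 of 47 with AAV-GFP and 0 of 47 with AAV-PRDM16, where 3 and 9 had an unadjusted p under 0.05, against 9.18% and 13.7% of all genes. DESeq2 called 0 and 3 of the 47 there, against 1.29% and 3.28% of all genes.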

How the data were processed

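BAT total RNA of 22 mice was sequenced as mRNA libraries. The authors deposited 2 tables of raw counts per Ensembl gene, 1 per cohort, without normalization. Per the labels' processing notes, bcl2fastq 2.20, Trimmomatic 0.36 and HISAT2 were used with GRCm38.p6; the counting tool and its handling of strand, duplicates and molecular identifiers are not given in the sources used here. Of 55487 identifiers, 55227 matched GENCODE M21. Totals were 55320927 to 162721202 counts. Limits from a 0 (3 counts) cover counting error only. The intervals of fold changes are edgeR's and include its estimate of the spread between libraries. The labels name separate mice, and no pair of libraries within a group differed by less than counting noise.

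The 7 genes, the other lists and the tests were chosen with earlier results of these data known. Named are the 7 genes, the 3 most alike for each, *Cpeb2*, *Prdm16*, and from the list of 48 those called or the 2 most abundant per subgroup; in a few cases genes without overlap were named after their values were seen. One gene that this rule names is not reported here. Counts were filtered by filterByExpr, TMM-scaled and tested with edgeR 4.0.16 (R 4.3.3), quasi-likelihood, two-sided, Benjamini-Hochberg over all genes tested, FDR 0.05: 17869 genes in 10 untreated and 18899 in 12 AAV libraries. The 2 ratios (pseudocount 0.5) were compared by exact permutation tests, whose smallest p is 0.1 for 3 mice against 3; the *Eef1a2* share was tested in the untreated cohort only, because in every AAV pair a group held no counts. Alternatives were DESeq2 1.42.0, RLE scaling, other filters (none, or 1 CPM in 3 libraries), the replicate number as a block, each library left out, and WT replicates 1 and 2 left out. Others were a muscle score (mean log2 CPM of 20 markers, prior count 2) or Y-linked transcripts above 10 CPM (yes or no) as a covariate. The last were only the groups compared, and the study's thresholds of 2-fold and FDR 0.5. Near copies were transcripts matching over at least 200 bases at 90% identity. The scripts were tested on simulated data.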

Additional observations from a re-analysis of the deposited data

Results flagged for a closer look

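Groups of 5 mice were searched for a mouse far from the rest, 18 groups of values in all, and chance flags about 1 in 20 such groups. In both values found, WT replicate 3 stood far above the other 4 WT mice: its *Eef1a2* level was 26.1 CPM, against 2.01 CPM or less in the others, and its *Eef1a2* share of eEF1A transcripts was 1.36%, against 0.139% or less. These are the same transcript measured in different ways. The mature muscle markers of this library summed to 4259 CPM, against 257 CPM or less in the other 4 WT libraries. Their part in the *Eef1a2* value was not tested.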

How the results depend on the processing

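Of 912 log2 fold changes of the elongation genes under alternatives, 857 kept their direction and their side of the threshold, 53 changed sign and 2 newly passed; no value that changed sign had passed. The values that newly passed were those of *Eef1d* by DESeq2 (-0.39 with AAV-PRDM16 and -0.24 over both viruses), so that DESeq2 called 1 elongation gene in each, and the study's thresholds called 1 in the untreated cohort. With the muscle score as a covariate, *Eef2k* was at -0.0574 in the untreated cohort and at -0.00988 for the virus in WT, and *Eef1a1* at -0.0142 for the interaction. Without WT replicates 1 and 2, *Eef1b2* was at -0.0618. For the virus in WT, *Eef1g* was at 0.000168 by DESeq2 and 0.000172 by RLE scaling. For KO + AAV-PRDM16 against WT + AAV-GFP, *Eef1b2* was at 0.00225 by DESeq2, 0.00239 by RLE scaling and 0.00205 with the 1 CPM filter, and *Eef1g* at -0.00505 with no filter.

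With 1 library left out at a time, signs changed within these log2 ranges. In the untreated cohort they were -0.15 to 0.00937 for *Eef1a1* and -0.0701 to 0.19 for *Eef2k*. For KO against WT with AAV-GFP they were -0.0878 to 0.0175 for *Eef1a1*, -0.0735 to 0.18 for *Eef1b2*, -0.16 to 0.0263 for *Eef2k* and -0.0383 to 0.0790 for the *Eef2k* to *Eef2* ratio. With AAV-PRDM16 they were -0.11 to 0.0191 for *Eef1a1* and -0.0890 to 0.0740 for *Eef1g*, and over both viruses -0.0892 to 0.0390 for *Eef1b2*. For the virus in WT they were -0.0771 to 0.11 for *Eef1g*, -0.0724 to 0.11 for *Eef2k* and -0.11 to 0.0865 for that ratio, and in KO -0.19 to 0.0589 for *Eef1b2*, -0.0823 to 0.0259 for *Eef1d* and -0.0647 to 0.0137 for *Eef2*. For KO + AAV-PRDM16 against WT + AAV-GFP they were -0.0250 to 0.0843 for *Eef1a1*, -0.12 to 0.0821 for *Eef1b2* and -0.0661 to 0.12 for *Eef1g*, and for the interaction -0.0653 to 0.0660 for *Eef1a1*.

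Over all genes, edgeR called 0 in the untreated cohort, 10 with AAV-GFP, 9 with AAV-PRDM16, 412 over both viruses, 0 for the virus in WT, 0 in KO, 1 for KO + AAV-PRDM16 against WT + AAV-GFP and 0 for the interaction. In the same order the study's thresholds called 1924, 341, 916, 930, 275, 406, 170 and 0, and DESeq2 0, 243, 619, 1584, 152, 266, 157 and 1. Leaving out 1 library gave 0, 0 to 8, 0 to 15, 89 to 590, 0 to 2, 0 to 2, 0 to 3 and 0 to 1. With no filter 250 genes were called over both viruses, and with the 1 CPM filter 19 with AAV-PRDM16. The muscle score gave 1 with AAV-GFP, 2 with AAV-PRDM16 and 208 over both viruses. Fitting only the groups compared gave 0, 2 and 0 for AAV-GFP, AAV-PRDM16 and KO + AAV-PRDM16 against WT + AAV-GFP. The cause of these differences was not tested.

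The replicate numbers do not pair the mice: deviations of same-numbered libraries correlated at over 0.1 in 1 of 5 untreated and 2 of 18 AAV pairs. With the replicate number as a block, 0 elongation genes were called in any comparison, the log2 fold change of *Eef1a2* was 2.91 and that of *Eef2* 0.55 in the untreated cohort, and 1 gene was called with AAV-GFP and 5 with AAV-PRDM16. At the counts of *Eef1a2* in the AAV cohort, differences between groups were not detectable.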
